A study of Mus musculus with 12 samples.

Results

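Bdh1, Oxct1 and Acat1 encode the enzymes by which mitochondria outside the liver turn ketone bodies into acetyl-CoA. They were taken by gene symbol from the count tables of an RNA-seq study of the mouse left ventricle, and are 3 of the 16673 genes listed in both tables. The study asked what loss of Ddx5, a DEAD-box RNA helicase that acts in transcription and splicing, does to the heart, and sequenced 12 libraries in 4 groups of 3. The constitutive knockout (mCKO) was DDX5fl/fl with MYH6Cre, untreated and 8 weeks old, beside untreated Ddx5flox/flox controls of the same age without Cre (CTR1). The inducible knockout (iCKO) was Ddx5flox/flox with Myh6MerCreMer, a Cre that tamoxifen activates, and its controls were Ddx5flox/flox mice without it (CTR2). Both these groups were injected intraperitoneally with tamoxifen (20 mg/kg/day) over 5 days. The series' design states 7 days instead, and the age of these mice is not given. All mice were male, and all 4 groups carried floxed Ddx5 alleles. Because the controls lacked Cre, an effect of Cre or MerCreMer itself cannot be told apart from that of Ddx5 loss. Myh6 drives Cre in cardiomyocytes, whereas the RNA came from every cell of the ventricle. In such bulk RNA, fewer cells of a type and less RNA per cell cannot be told apart. The labels do not say that the libraries of a group came from separate animals, so p-values measure the spread between these libraries.

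The liver makes acetoacetate and beta-hydroxybutyrate from fatty acids during fasting, and the heart takes them up and oxidises them. Bdh1, beta-hydroxybutyrate dehydrogenase, oxidises beta-hydroxybutyrate to acetoacetate. Oxct1, the succinyl-CoA transferase also called SCOT, then moves CoA from succinyl-CoA, an intermediate of the citric acid cycle, to acetoacetate, a step that ketone-using tissues have and hepatocytes largely lack. Acat1, a mitochondrial thiolase, splits the resulting acetoacetyl-CoA into acetyl-CoA, and also acts in the breakdown of isoleucine. The failing heart is known for a raised use of ketone bodies.

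The 12 libraries held between 19682268 and 25871882 gene counts. Ddx5, which checks the labels, was at 637, 634 and 396 counts scaled to library size (CPM) in CTR1 replicates 1, 2 and 3, and at 233, 231 and 216 CPM in mCKO. It was at 572, 712 and 610.0 CPM in CTR2 and at 209, 214 and 196 CPM in iCKO, so every knockout library lay below every control library. CTR1 replicate 3 lay below the other control libraries, and replicate 3 of mCKO and CTR1 stood apart from replicates 1 and 2 together across genes. Markers of the labelled tissue were abundant, with the ventricular light chain gene Myl2 at up to 9695 CPM. Of the hepatocyte markers, Alb and Apoa1 reached at most 0.337 and 0.294 CPM and Ttr 3.995. Of the atrial markers, Bmp10 reached at most 0.0963 CPM, Sln 3.43, Dkk3 7.64, Myl7 10.7, Myl4 24.9 and Stard10 45.2, but Nppa reached 8280. By log2 fold change, Myl4 (2.94) and Nppa (4.53) were called higher in iCKO and Stard10 (-0.82) lower. Nppa was also called higher in mCKO with the replicate number as a block (2.37).

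The genes lie on different chromosomes of GRCm38, as given by RefSeq. Bdh1 (Entrez gene 71911) spans bases 31422297 to 31458901 of the forward strand of chromosome 16, Oxct1 (67041) spans 4026428 to 4155344 of the forward strand of chromosome 15, and Acat1 (110446) spans 53580522 to 53610350 of the reverse strand of chromosome 9. In GENCODE M21, exons of Bdh1 shared 533 bases with Gm15743 on the opposite strand, and exons of Oxct1 shared 467 bases with BC037032 on the opposite strand. Acat1 exons overlapped no other gene. Of all stretches of 50 bases in the transcripts, 11.1% for Bdh1 and 11.2% for Oxct1 were also found in another gene, each time in that antisense partner, and 0 of 3706 for Acat1. The library kit marks strand, but whether counting used it is not given in the sources used here, so part of the Bdh1 and Oxct1 counts could come from those partners.

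The promoters, the stretches before the start of transcription, are shown because the enzymes fell together in iCKO. RefSeq promoters on GRCm38.p6 matched 2 of the 3 genes, Bdh1 with both a more upstream and a more downstream start, and Acat1 was not matched. The 250 bases before each start are printed 5′ to 3′ on the forward strand with CG dinucleotides, the sites of DNA methylation, in capitals.
Oxct1, chr15:4026178-4026427: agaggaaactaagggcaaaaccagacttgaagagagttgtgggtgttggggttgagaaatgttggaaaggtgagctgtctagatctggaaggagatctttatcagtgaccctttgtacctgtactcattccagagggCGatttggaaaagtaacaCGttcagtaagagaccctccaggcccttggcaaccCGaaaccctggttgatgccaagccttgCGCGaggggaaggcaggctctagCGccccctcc
Bdh1, upstream start, chr16:31422047-31422296: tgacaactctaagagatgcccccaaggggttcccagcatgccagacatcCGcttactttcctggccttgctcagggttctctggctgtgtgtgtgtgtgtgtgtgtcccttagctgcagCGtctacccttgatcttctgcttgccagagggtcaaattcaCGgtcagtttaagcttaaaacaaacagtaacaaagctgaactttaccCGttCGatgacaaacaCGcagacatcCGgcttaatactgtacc
Bdh1, downstream start, chr16:31428503-31428752: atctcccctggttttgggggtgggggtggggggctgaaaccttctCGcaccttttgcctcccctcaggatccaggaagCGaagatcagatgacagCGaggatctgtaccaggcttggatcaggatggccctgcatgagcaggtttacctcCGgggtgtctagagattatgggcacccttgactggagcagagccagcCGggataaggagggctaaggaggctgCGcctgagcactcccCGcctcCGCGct
The Oxct1 stretch held 6 CG dinucleotides and was 52.0% G or C. The Bdh1 stretches held 7 and 9, at 49.6% and 60.8% G or C. Over all 32851 RefSeq promoters cut to the same length, the median was 6 CG dinucleotides and 52.4% G or C, so the downstream start of Bdh1 lay above the median in both and Oxct1 at or near it. Both strands were searched for TNAAGGTCA, the element of oestrogen-related receptors, found in 1.14% of all promoters of that length, and for AGGTCA, the core of that element, found in 4607 of the 32851. The search also took AGGTCA followed after 1 base by AGGTCA, a repeat bound by peroxisome proliferator-activated receptors (0.0335%), and GCGCA followed after 1 base by GCGC, the site of nuclear respiratory factor (3.74%). The others were TATAAA (12.4%), GGGCGG (32.7%) and CCAAT (33.8%). AGGTCA overlaps with the receptor element and with the repeat that hold it. None of the 7 motifs occurred in the 3 stretches, which says only that these letters are not in these windows.

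Of the 3 enzymes, Oxct1 had the highest level and Bdh1 the lowest. Scaled to library size and exon length (RPKM), Oxct1 was at 438 ± 13.98 in CTR1 and 554 ± 38.2 in CTR2 (mean ± SD, n = 3 for each group here and below), which ranked 105 and 68 among 16132 genes. Acat1 was at 182 ± 8.9 and 227 ± 8.5 RPKM in the same groups, ranking 243 and 190. Bdh1 was the lowest of the 3, at 39.3 ± 16.9 RPKM in CTR1 and 63.3 ± 14.6 in CTR2, ranking 1070 and 674. In mCKO the levels were 431 ± 40.5 for Oxct1, 104 ± 13.3 for Acat1 and 42.8 ± 14.3 RPKM for Bdh1, and in iCKO 176 ± 28.4, 82.6 ± 6.5 and 11.6 ± 0.98. The first enzyme of the path thus had the least mRNA, and the CoA transferase the most, in each of the 4 groups.

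**Figure D1:**
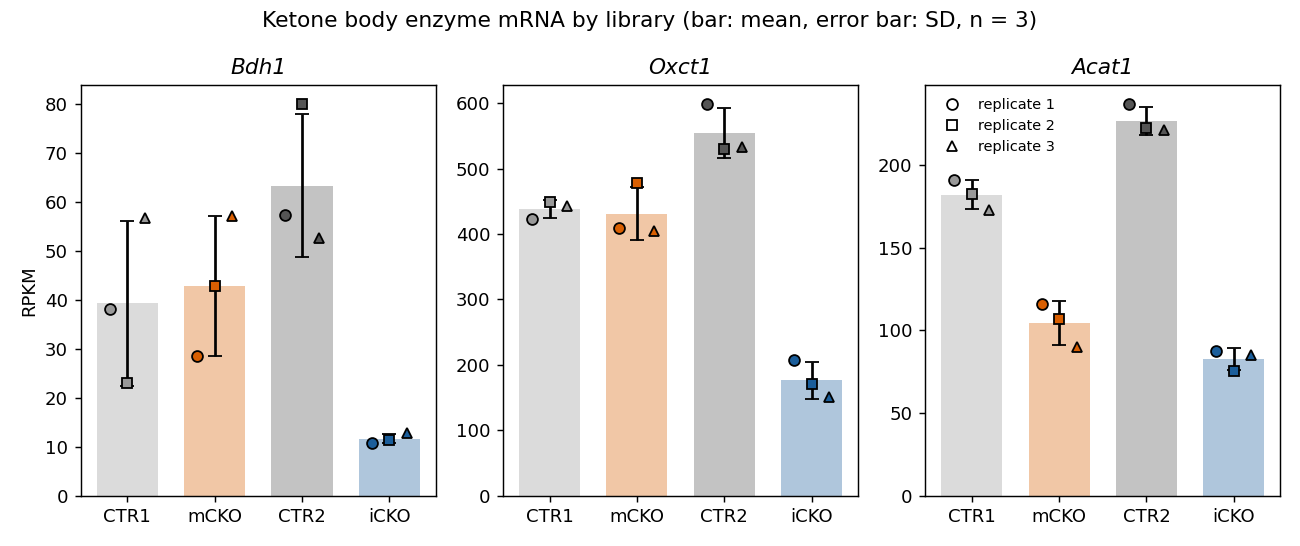
RPKM of Bdh1, Oxct1 and Acat1 in each library of CTR1, mCKO, CTR2 and iCKO, as points, with the group mean as a bar and its SD as an error bar. In iCKO every point of each gene lies below all control points, and in mCKO this holds for Acat1.

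The fall in iCKO was deepest for Bdh1. Bdh1 was at 223, 311 and 205 CPM in CTR2 replicates 1, 2 and 3 and at 42.0, 44.3 and 49.4 CPM in iCKO. The iCKO libraries lay close together, far below the lowest control. The mean of iCKO was 18.4% of that of CTR2, a log2 fold change of -2.40 ± 0.19 (SE, adjusted p = 9.0e-05), and 179 of 13548 genes tested had a lower value. Here and below, fold changes are from edgeR's quasi-likelihood fit and p-values are adjusted over all genes tested.

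Oxct1, the most abundant member, was at 2214, 1963 and 1976 CPM in CTR2 and at 767, 631 and 559 CPM in iCKO. Every iCKO library was below every control library. The mean fell to 31.8% of the control, a log2 fold change of -1.61 ± 0.18 (adjusted p = 2.9e-04). Acat1 was at 889, 835 and 832 CPM in CTR2 and at 328, 283 and 321 CPM in iCKO, again without overlap. Its mean was 36.4% of the control, a log2 fold change of -1.41 ± 0.14 (adjusted p = 2.0e-04).

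All 3 enzymes therefore fell in iCKO, where 19.5% of the 13548 genes tested were called lower and 25.2% higher at an adjusted p of at most 0.05. The groups did not overlap for any of the 3, as for 29.2% of 13540 genes on the lower side and 29.9% on the higher side. Two-sided exact permutation tests on log2 CPM gave p = 0.1 for each gene, the smallest p that 3 against 3 libraries allow (0.15 adjusted over the 6 such tests of both models). Leaving out any 1 library kept each log2 fold change between -2.52 and -2.21 for Bdh1, -1.76 and -1.53 for Oxct1, and -1.47 and -1.35 for Acat1, each time called. The median log2 fold change of all genes was 0.03 in this comparison, and 0.24 when libraries were scaled by their totals alone.

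In mCKO the lower level was that of Acat1. Acat1 was at 717, 686 and 650.2 CPM in CTR1 and at 436, 402 and 338 CPM in mCKO. All mCKO libraries were below all controls, and within each group replicate 3 was the lowest. The mean was 57.3% of the control, a log2 fold change of -0.80 ± 0.13, which was not called (adjusted p = 0.17), as none of 13353 genes was called in either direction (0.0% higher and 0.0% lower, with 1164 genes at an unadjusted p under 0.05). Libraries with the same replicate number deviated together in this experiment, those of numbers 1 and 2 also across numbers, and with the number as a block the same size, -0.80 ± 0.07, was called at an adjusted p of 6.4e-05. With that block 6.45% of genes were called lower and 7.32% higher, and 90 of 13353 had a lower log2 fold change than Acat1. The deleted gene Ddx5 was likewise not called without the block (-1.29 ± 0.20, adjusted p = 0.17) and called with it (-1.26 ± 0.12, adjusted p = 0.0019). DESeq2 called Acat1 lower without the block, limma-voom did not (adjusted p = 0.17), and edgeR called it at an adjusted p of 0.0012 when replicate 3 of both groups was left out. Over all genes without the block, DESeq2 called 176 higher and 134 lower, and limma-voom called 0. The groups of Acat1 did not overlap (exact permutation p = 0.1), as for 7.68% of genes on the lower side and 7.44% on the higher side.

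Bdh1 was at 148, 89.7 and 221 CPM in CTR1 and at 111, 166 and 222 CPM in mCKO. The groups covered nearly the same range, and the spread within each was wide, with replicate 3 the highest of both. The log2 fold change was 0.13 ± 0.38 (adjusted p = 0.99), with a 95% interval from -0.77 to 1.04. That interval holds falls as well as rises, so no change was detected and neither direction can be excluded. The block did not narrow that interval (-1.09 to 1.42).

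Oxct1 was measured far more tightly, at 1564, 1663 and 1639 CPM in CTR1 and at 1516, 1768 and 1500.3 CPM in mCKO. One mCKO library was above and the other two below all controls. The log2 fold change was -0.02 ± 0.11 (adjusted p = 0.99), with a 95% interval from -0.29 to 0.25. With the block the interval was -0.16 to 0.12, which holds neither the Acat1 value in mCKO nor the Oxct1 value in iCKO. The sign of this value is not settled, since scaling by library totals gave 0.06. Exact permutation tests gave p = 0.7 for Bdh1 and p = 0.8 for Oxct1 on log2 CPM, each 0.8 after adjustment over the 6 tests.

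**Figure D2:**
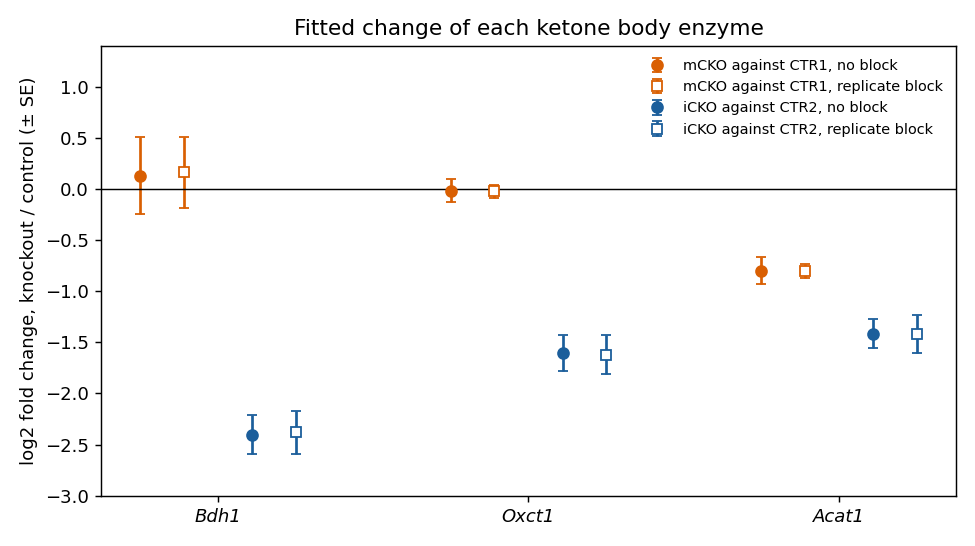
Log2 fold change of each enzyme between knockout and control (vertical axis, error bars are SE) for mCKO against CTR1 and iCKO against CTR2, without (filled circles) and with (open squares) the replicate number as a block. Acat1 in mCKO lies at -0.80 in both fits, Bdh1 and Oxct1 in mCKO lie at or near 0, and all 3 lie below -1 in iCKO.

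The difference between the models was tested itself, as the effect in mCKO minus that in iCKO over all 12 libraries. The models share no control library. For Bdh1 it was 2.57 ± 0.44 on the log2 scale (adjusted p = 0.0023, 95% interval 1.60 to 3.53), and for Oxct1 it was 1.63 ± 0.20 (adjusted p = 2.7e-04, 1.198 to 2.06). For Acat1 it was smaller, 0.65 ± 0.18 (adjusted p = 0.025, 0.26 to 1.05). Each enzyme was thus lower relative to its control in iCKO than in mCKO, in a contrast where 11.0% of 13871 genes were called in that direction and 9.88% in the other. The Acat1 call was not firm. It was lost in 8 of the 12 fits that left out 1 library (adjusted p between 0.0575 and 0.0805, without CTR1 replicate 1, 2 or 3, mCKO replicate 1 or 2, iCKO replicate 2, or CTR2 replicate 1 or 3), and with libraries scaled by their totals (0.48). Ddx5 itself differed by 0.32 ± 0.25 between the models (adjusted p = 0.39). Tamoxifen, the kind of Cre, the timing of Ddx5 loss (constitutive or induced) and the experiment differ between the models, and age may. These cannot be told apart.

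Ordered by level, Acat1 ran from CTR2 at 852 ± 32.0 CPM through CTR1 at 684 ± 33.4 and mCKO at 392 ± 49.8 to iCKO at 310.4 ± 24.5, and no neighbouring groups overlapped, although the lowest mCKO library (338) was close to the highest iCKO library (328). For Oxct1 the order was CTR2 (2051 ± 141 CPM), then CTR1 (1622 ± 51.8) and mCKO (1595 ± 149.9), which overlapped, then iCKO (652.5 ± 105). For Bdh1, CTR2 (246 ± 56.6 CPM), mCKO (166.5 ± 55.4) and CTR1 (153 ± 65.5) overlapped their neighbours, and only iCKO (45.2 ± 3.82) stood apart. CTR2 had the highest mean of each enzyme, and that order was not tested, since the control groups differ in tamoxifen and in experiment.

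Taken within each library and so free of library scaling, the proportions between the enzymes shifted with opposite sign in the models for each pair. In mCKO the ratios to Bdh1 overlapped with the control. The sign of the Oxct1 to Bdh1 shift there changed with the library left out. The RPKM ratio of Oxct1 to Acat1 was 2.21, 2.46 and 2.56 in CTR1 and 3.53, 4.47 and 4.51 in mCKO. In mCKO, then, every library held more Oxct1 for each Acat1 than any control, by 0.78 on the log2 scale (exact permutation p = 0.1, 0.15 adjusted over 6 ratio tests). The same ratio was 2.53, 2.39 and 2.41 in CTR2 and 2.37, 2.27 and 1.77 in iCKO, a difference of -0.20 (p = 0.1, exact permutation). Those groups also did not overlap, but the gap was small and the lowest library, iCKO replicate 3, moved it most, to -0.07 when left out.

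Relative to Bdh1, both other enzymes were higher in every iCKO library than in any CTR2 library. The ratio of Oxct1 to Bdh1 was 10.4, 6.64 and 10.1 in CTR2 and 19.2, 14.99 and 11.9 in iCKO. The ratio of Acat1 to Bdh1 was 4.12, 2.78 and 4.21 in CTR2 and 8.08, 6.60 and 6.71 in iCKO. Neither overlapped, with log2 differences of 0.76 and 0.96 (exact permutation p = 0.1 each). In mCKO both ratios overlapped with CTR1, with log2 differences of -0.19 (exact permutation p = 0.8) and -0.97 (exact permutation p = 0.2). The latter was -0.63 without CTR1 replicate 2 or without mCKO replicate 3, and -1.32 without CTR1 replicate 3 or without mCKO replicate 1. The control ratios of Oxct1 to Bdh1 themselves ran from 7.81 to 19.5 in CTR1.

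**Figure D3:**
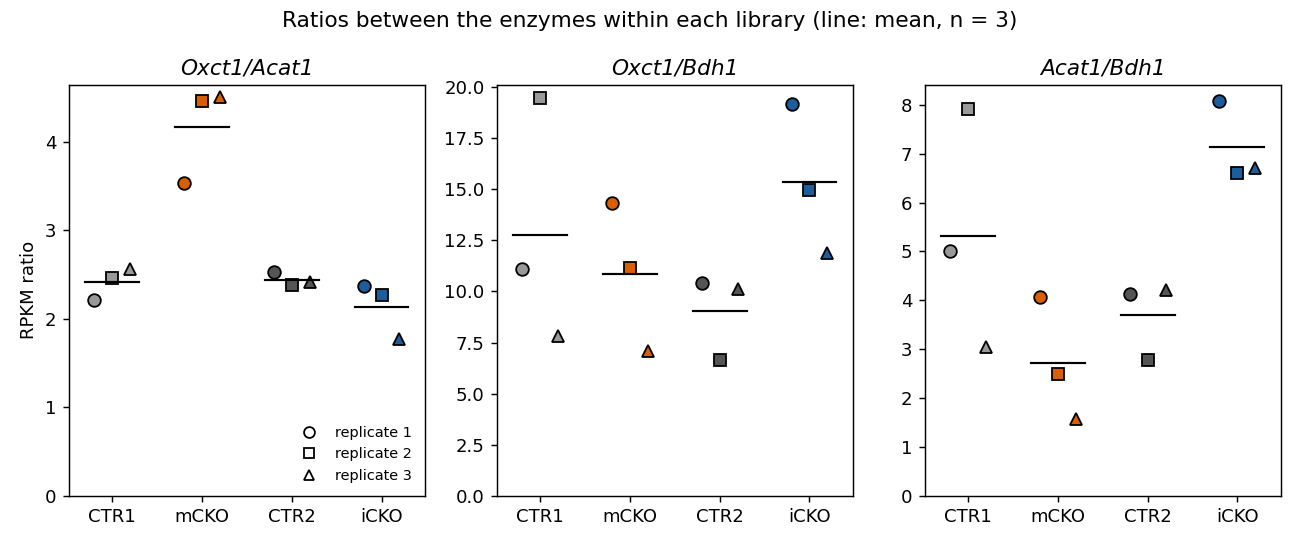
Ratio of the RPKM of 2 enzymes within each library (vertical axis) in the 4 groups, 1 panel for each pair, with the group mean as a line. The ratio of Oxct1 to Acat1 is above 3.5 in every mCKO library and below 2.6 in every other library.

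Ketone bodies enter cells through monocarboxylate transporters, of which 6 genes with their chaperones were listed. Slc16a1, the main transporter of this kind in the heart, was at 80.8 RPKM in CTR2 and 75.6 in iCKO, a log2 fold change of -0.05 (adjusted p = 0.79). It was at 68.8 RPKM in CTR1 and 74.3 in mCKO (0.10 with the block, adjusted p = 0.51). Bsg, the chaperone that carries Slc16a1 and Slc16a3 to the cell surface, fell from 799 to 350.2 RPKM in iCKO (-1.15 ± 0.15, adjusted p = 5.7e-04) and was at -0.17 in mCKO with the block (adjusted p = 0.085). Slc16a7, a high-affinity transporter present at under 1 RPKM, fell by 2.03 in iCKO. Slc16a3, known for lactate export from glycolytic cells, rose from 0.762 to 7.24 RPKM (3.28 ± 0.27, adjusted p = 9.7e-05), and Emb, a chaperone of this transporter family, rose by 3.03. That gave 2 of 6 higher and 2 of 6 lower in iCKO, beside 25.2% and 19.5% of all genes. In mCKO the block called only Emb, at 0.92 (adjusted p = 0.0305), a gene picked out here after its value was seen. Between the models Slc16a3 (-3.05), Bsg (1.02) and Slc16a7 (1.96) differed. Emb was at -2.13 in that contrast (adjusted p = 0.055) and with the block at -1.99, called (adjusted p = 0.0156).

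Other ketone enzymes were called in 4 cases among 7 tested in iCKO, each time higher, beside 25.2% of all genes called higher. The median of the 7 was 0.87. Hmgcs1 and Aacs, cytosolic enzymes on the way to sterols and fatty acids, rose by 1.30 ± 0.15 and 0.87 ± 0.23. The others were the relatives Bdh2 (2.43 ± 0.54) and Acat3 (1.68 ± 0.60), both at under 0.4 RPKM in iCKO. In CTR2 they were at 0.067 and 0.081 RPKM. Bdh2 and Acat3 passed the filter on low counts only through iCKO, where they were high, so only a rise could be called. Their calls and their part in the median therefore say nothing on the direction of the list. Without replicate 3 of both groups 2 of these 4 calls were made, as without CTR2 replicate 1 or without CTR2 replicate 3. Acat2, the cytosolic thiolase, was at 0.64 (adjusted p = 0.069), and Oxct2a, a testis relative of Oxct1, was at 0.0981 RPKM or less in every group and not tested. In mCKO 0 of 5 tested were called with or without the block. The difference between models was called for Hmgcs1 alone among 7 (-1.37 ± 0.18, adjusted p = 3.9e-04).

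Genes of the citric acid cycle, which supplies the succinyl-CoA that Oxct1 uses, fell together in iCKO. All 18 tested were called lower, with a median of -1.199, among them Idh3a, of isocitrate dehydrogenase (-1.38), and Dld, the dihydrolipoamide dehydrogenase (-1.35). Over all genes 19.5% were called lower and 25.2% higher in iCKO. The pathway lists were chosen with earlier results of these data known. Of 24 genes of fatty acid oxidation, 23 fell and Cpt1a did not (-0.29, adjusted p = 0.39), with a median of -1.54. Mlycd, malonyl-CoA decarboxylase, fell by 2.23, and Hadhb, the beta subunit of the trifunctional protein, fell by 2.01. Of 21 genes of branched-chain amino acid breakdown, in which Acat1 also takes part, 20 fell and Bcat1, the cytosolic aminotransferase, rose (2.60 ± 0.24), with a median of -1.26. Bckdhb, of the branched-chain ketoacid dehydrogenase, fell by 2.27. Bdh1 lay below every tested gene of all 7 pathway lists, while 10 of 24 fatty acid and 2 of 18 citric acid cycle genes lay below Oxct1, and 14 and 4 below Acat1.

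In mCKO edgeR called no gene of these lists without the block (6 of 18, 10 of 24 and 7 of 21 genes of the 3 lists just described had an unadjusted p under 0.05). With it, 6.45% of all genes were called lower and 7.32% higher, with a median of 0.00. Of the lists, 11 of 18 citric acid cycle genes (median -0.25), 17 of 24 fatty acid oxidation genes (median -0.29) and 9 of 21 branched-chain genes (median -0.16) were called lower and none higher. Examples were Sdha of succinate dehydrogenase (-0.37), Acadvl, the very-long-chain acyl-CoA dehydrogenase (-0.45), and Bckdha of the ketoacid dehydrogenase (-0.50). Acat1, at -0.80, lay below every one of these 63 genes, and Oxct1, at -0.02, above all 18 citric acid cycle and 23 of 24 fatty acid genes. The number of calls moved with the libraries used, and the medians moved little. Without replicate 3 of either group the block called 1 citric acid cycle, 3 fatty acid and 3 branched-chain genes, with medians of -0.22, -0.27 and -0.18. It called 3, 12 and 7 without replicate 2 and 8, 13 and 11 without replicate 1, and with no block and no replicate 3 the calls were 9, 14 and 8. In the difference between models 18 of 18, 23 of 24 and 16 of 21 genes of the 3 lists were called less lowered in mCKO. Over all genes 11.0% were called in that direction and 9.88% in the other. The Acat1 difference of 0.65 was smaller than that of all 18 citric acid cycle genes and of 22 of 24 fatty acid genes.

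**Figure D4:**
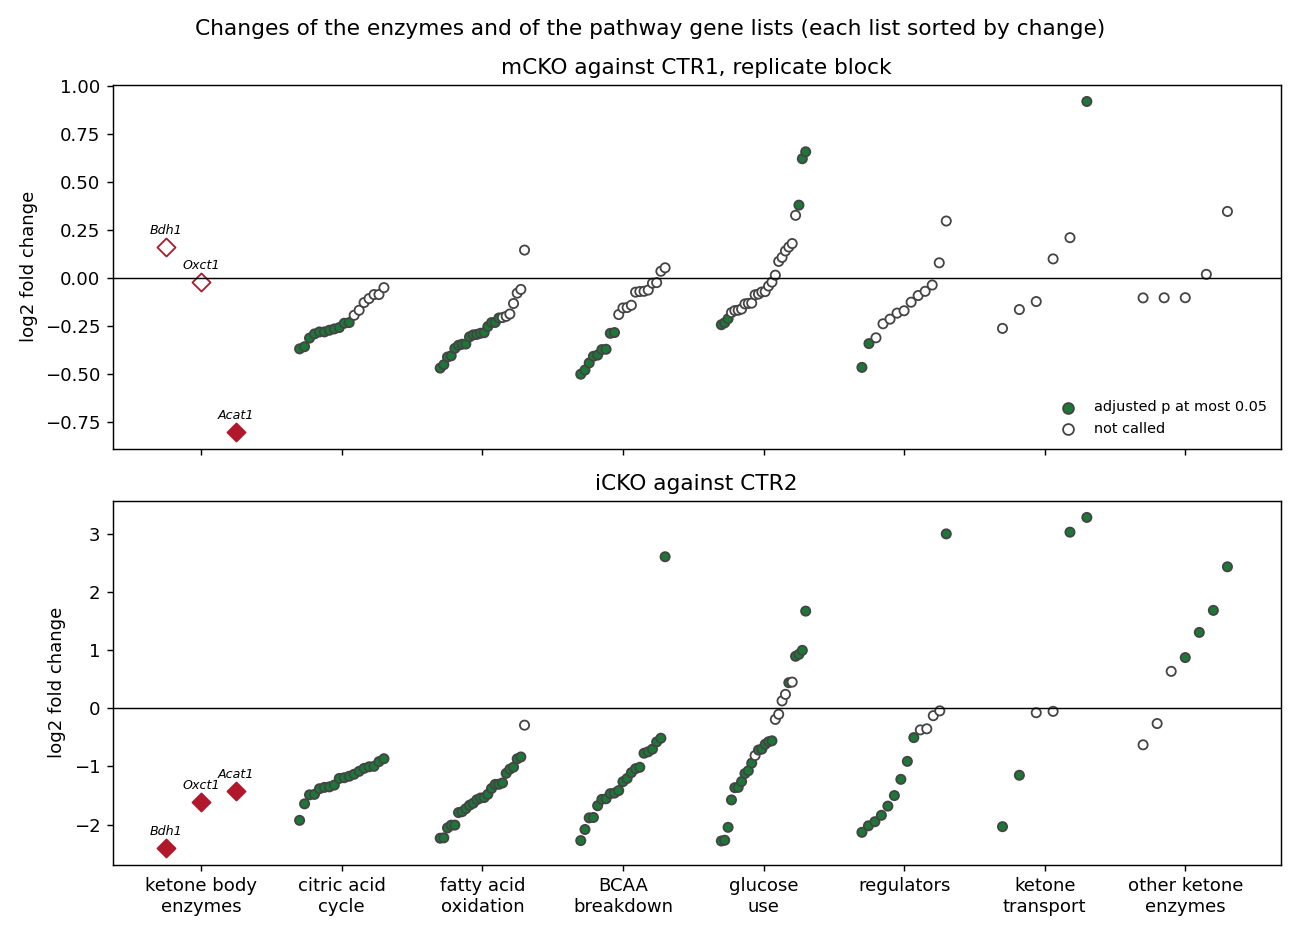
Log2 fold change (vertical axis) of the 3 enzymes and of the tested genes of 7 pathway lists, each list sorted by value, in mCKO against CTR1 with the replicate block (top) and in iCKO against CTR2 (bottom). Filled points have an adjusted p of at most 0.05. In mCKO Acat1 at -0.80 is the lowest point, and in iCKO Bdh1 at -2.40 is the lowest.

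Glucose genes were mixed. In iCKO 15 of 26 fell and 5 rose, beside 19.5% and 25.2% of all genes, so the share that rose was no larger than over all genes. Slc2a4, the insulin-responsive transporter, was at -2.27, Pfkm, the muscle phosphofructokinase, at -2.05, and Ldhb, the heart form of lactate dehydrogenase, at -1.57. Those that rose, named here after their values were seen, were the glycolytic enzymes Eno1 (1.67), Pfkp (0.93), Pgam1 (0.89) and Pgk1 (0.44) and the basal glucose transporter Slc2a1 (0.996). With the block Eno1 (0.62), Pfkp (0.66) and Pgam1 (0.38) were also called higher in mCKO, and Pdha1 (-0.25), Pdk1 and Dlat lower. Of 14 regulators tested in iCKO, 9 fell, among them the oestrogen-related receptors Esrra (-1.22 ± 0.14) and Esrrb (-2.02), the deacetylase Sirt3 (-1.68) and the transcription factor Klf15 (-1.95). Hcar2, a receptor for beta-hydroxybutyrate, was at 0.10 RPKM in CTR2 and 0.82 in iCKO and was called higher (2.998 ± 0.50). It passed the filter on low counts only through iCKO, where it was high, so only a rise could be called. In mCKO with the block Esrra (-0.47, adjusted p = 0.0016) and Ppara (-0.34, adjusted p = 0.018), an activator of ketone and fatty acid genes, were lower among 13 tested.

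Marker genes of several cell types changed in the same comparisons. The summed level of 10 cardiomyocyte markers was 93077.9 to 104564 CPM in CTR2 and 50226.6 to 59510.2 CPM in iCKO, with 7 of 10 called lower and Myh7 higher. In CTR1 the sum was 72504.9 to 107774 CPM and in mCKO 61080.4 to 94362.5 CPM, overlapping, with 6 of 10 called lower with the block. For 9 macrophage markers the sum was 255 to 333 CPM in CTR2, 575 to 1105 in iCKO, 351 to 429 in CTR1 and 470.3 to 682 in mCKO, with 8 of 9 called higher in iCKO and 9 of 9 in mCKO with the block. For 8 fibroblast markers it was 923 to 1082 CPM in CTR2, 2989 to 4838 in iCKO, 1001 to 1693 in CTR1 and 1118 to 2026 in mCKO, with 4 of 8 called higher and Dcn lower in iCKO, and 4 of 8 called higher in mCKO with the block. In iCKO the collagen genes Col1a1 (3.82), Col1a2 (3.25) and Col3a1 (4.31) rose most, and Pdgfra rose by 0.61. Dcn was at -0.63, and Lum (0.80), Tcf21 (0.21) and Dpt (-0.21) were not called, so the higher sum is not a rise of the whole list. Without the block no marker of these 3 lists was called in mCKO. The median log2 fold change of the cardiomyocyte list was -0.97 in iCKO and -0.22 in mCKO with the block, and single markers reached -2.19 (Ryr2) and -1.94 (Pln) in iCKO and -0.53 (Ryr2) in mCKO. At the other end Myh7 was at 1.93 in iCKO. Actc1 and Tnnt2 were at 0.33 and -0.27 in iCKO and at -0.01 and -0.13 in mCKO with the block, none of these called. Of the other lists, 8 endothelial markers summed to 1222 to 1433 CPM in CTR2 and 918 to 993 in iCKO, with Cdh5, Kdr and Tek called lower. For 7 smooth muscle and pericyte markers the sums overlapped, at 949 to 1031 CPM in CTR2 and 749 to 1134 in iCKO. There Acta2, Tagln and Cnn1 were called higher and Myh11 and Rgs5 lower. In mCKO with the block, Acta2 was called higher and no endothelial marker was called. The endothelial sums overlapped, at 1118 to 1969 CPM in CTR1 and 1166 to 1964 in mCKO. The list medians in mCKO without the block moved when CTR1 replicate 3 was left out. They went from 0.04 to 0.32 for endothelial, 0.31 to 0.72 for fibroblast and 0.11 to 0.60 for smooth muscle and pericyte markers. For cardiomyocyte markers the median went from -0.23 to -0.34. The part of cell composition in the enzymes' changes was not tested.

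Genes whose profile was most like each enzyme were found by Pearson's r of log2 CPM, centred on each experiment, over the 12 libraries and 11772 genes. These values are descriptions, since the points share the knockout contrast and the libraries. The calls of genes picked in this way follow from that likeness and are no separate result. For Oxct1 the nearest was Twnk, the mitochondrial DNA helicase (r = 0.995), then Fndc5, Wipf3, Ephx2 and Rhot2 (0.991 or more). Of these, Twnk was at -1.09 in iCKO and -0.04 in mCKO with the block, and Fndc5, the precursor of irisin, at -2.94 and -0.29. For Acat1 the nearest were Rnpepl1 (r = 0.985), Pccb of propionyl-CoA carboxylase (0.984), the mitochondrial malic enzyme Me3 (0.982), Pex10 (0.981) and Suclg2 of succinyl-CoA ligase (0.979). All 5 were called lower in iCKO and, only with the block, in mCKO. In mCKO with the block they lay between -0.57 for Pex10 and -0.26 for Rnpepl1, each nearer to 0 than Acat1. For Bdh1 they were Mtss2 (r = 0.977), Mrps2 (0.975), Tex261 (0.970), Lims2 (0.970) and Smpdl3a (0.968), all called lower in iCKO and none in mCKO. The enzymes were not each other's nearest genes. Oxct1 ranked 387 for Bdh1, and Bdh1 ranked 1011 for Oxct1 (r = 0.887). Acat1 ranked 1264 for Oxct1, and Oxct1 ranked 906 for Acat1 (0.861). Acat1 ranked 1805 for Bdh1, and Bdh1 ranked 2123 for Acat1 (0.728).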

How the data were processed

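RNA of 12 left ventricles' libraries was sequenced after Trizol extraction and a TruSeq stranded mRNA kit, per the labels' protocols. HISAT2, DESeq and GRCm38 are named, per the submitters' processing notes. The versions, the annotation and the tool that counted reads were not given in the sources used here. Whole-number raw counts per gene were what the authors deposited, 17260 genes for mCKO with CTR1 and 17325 for iCKO with CTR2. The smallest chi-square between 2 libraries of a group was 6.25 per degree of freedom, so none was counted as a duplicate.

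Genes kept by filterByExpr (minimum count 10, minimum total 15) were tested with edgeR 4.0.16 in R 4.3.3, by quasi-likelihood fits with robust dispersions and TMM scaling, each experiment alone and all 12 libraries for the difference. Two-sided p-values were adjusted by Benjamini-Hochberg and called at 0.05, and log2 fold changes are knockout over control. CPM and RPKM used TMM scaling over all 12 libraries, and RPKM the exon length of GENCODE M21. Alternatives were the replicate block, DESeq2 1.42.0, limma-voom (limma 3.58.1), library totals, no filter, coding length, and left-out libraries. The lists of cell types and pathways and the members were chosen with earlier results of these data known. Named list genes were up to 4 called per list and comparison with the smallest adjusted p, or, with fewer than 2 calls, the 2 highest in mean CPM, with mCKO calls taken from the block. Names outside this rule were picked after their values were seen, and paralogs by protein identity were not analysed here. A few genes that the rule gives are left out. The fits were tested on simulated counts.

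Replicate numbers are from the labels, which do not say what a number marks. Libraries with the same number in mCKO and CTR1 had like deviations from their group means (r = 0.464, 0.532 and 0.823), each over the limit of 0.1. Numbers 1 and 2 correlated as much across numbers (0.553 and 0.529), whereas pairs of number 3 with another lay between -0.68 and -0.623, which sets only replicate 3 apart. By that limit block values stand beside that comparison. In iCKO and CTR2 same-numbered libraries did not pass it (0.0583, -0.0896 and -0.161).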

Additional observations from a re-analysis of the deposited data

Results flagged for a closer look

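The effect of the knockout on each enzyme differed between the models, by a test in edgeR of the mCKO effect less the iCKO effect. It was 2.57 on the log2 scale for Bdh1 (adjusted p = 0.0023), with iCKO libraries all below CTR2 and mCKO libraries in the range of CTR1. It was 1.63 for Oxct1 (adjusted p = 2.7e-04), with iCKO libraries all below CTR2 and mCKO libraries on both sides of CTR1. For Acat1 it was 0.65 (adjusted p = 0.025), with knockout libraries below controls in both models, and this call was lost in 8 of 12 fits without 1 library.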

How the results depend on the processing

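In iCKO the 3 enzymes stayed lower and called under every alternative run, and the differences of Bdh1 and Oxct1 between models did too. The replicate block took the counts of called genes in mCKO from 0 to 978 higher and 861 lower, and Acat1 from not called to called at -0.80. It changed no call of an enzyme in iCKO or in the difference. In mCKO, Acat1 was also called with DESeq2 (-0.81), with library totals and the block (-0.73), and without replicate 3 of both groups (-0.74). Oxct1 in mCKO turned positive with library totals (0.0563), with those and the block (0.0542), and without replicate 3 of both groups (0.0290), as did its log2 CPM difference with library totals (0.0540). The cause of these shifts was not tested. Genes called higher and lower in mCKO were 176 and 134 with DESeq2, 1581 and 474 with library totals and the block, 3 and 1 with no filter, and 514 and 526 without replicate 3 of both groups. With library totals and the block 1612 genes were called lower in iCKO. In the difference, library totals took Acat1 to 0.48, not called, and genes called lower to 2145, or 2719 with the block. By coding length the ratio of Oxct1 to Acat1 was 1.94 in CTR1 and 1.96 in CTR2, and that of Oxct1 to Bdh1 6.45 in CTR2, because another length enters the ratio.

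With replicate number 1, 2 or 3 of both groups left out of the blocked mCKO comparison, alternatives chosen after seeing the data, Acat1 was at -0.85, -0.82 and -0.74, each called. Genes called higher were then 766, 646 and 218, and lower 742, 447 and 170. Bdh1 turned negative without number 2 (-0.19) and Oxct1 positive without number 3 (0.0254). With 1 library left out and no block, mCKO values ran from -0.14 to 0.50 for Bdh1, from -0.10 to 0.0196 for Oxct1, both changing sign, and from -0.88 to -0.71 for Acat1, with 0 to 1 genes called higher and 0 lower. The log2 CPM differences in mCKO ran from -0.18 to 0.47 for Bdh1 and from -0.10 to 0.0139 for Oxct1, and the log2 ratio of Oxct1 to Bdh1 from -0.49 to 0.17. The Acat1 difference between models ran from 0.56 to 0.75, and the genes called lower there from 910 to 1615, the fewest without mCKO replicate 1. With 3 libraries a group, Bdh1 in mCKO had a wide 95% interval, from -0.77 to 1.04, which holds both falls and rises. The other changes and ratios of the enzymes kept their direction and side of the threshold under the alternatives run.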
